A study of Mus musculus with 6 samples.

Results

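Genes of the unfolded protein response and the integrated stress response were followed in RNA sequencing of isolated mouse glomeruli, the filtering units of the kidney. The members are 34 gene symbols, listed by name, and were found as 35 of the 54838 mouse Ensembl identifiers in the count tables. Ddit3 has 2 identifiers. The second (ENSMUSG00000116429, 105 exon bases, all inside the first) was counted 0 times in every library, so the members are described through 34 identifiers. All 34 passed the filter on low counts.

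The series holds 6 libraries of 3-week-old mice, 3 with the title CTRL and genotype wild type (animals 157, 162 and 163) and 3 with the title KO and genotype bPIX -/- (animals 146, 147 and 148). The series describes the loss of bPIX, the Cdc42 and Rac1 exchange factor encoded by Arhgef7, as limited to podocytes, the epithelial cells that wrap the glomerular capillaries. The sources do not name the Cre driver, the allele or the isolation method, nor do they say whether the wild type animals carry Cre or loxP alleles. CTRL and KO below always mean these sample labels. The file deposited under each label is named for an animal of the other group in all 6 cases, and if those names were the right ones every difference below would keep its size and change its sign.

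The endoplasmic reticulum (ER) folds secreted and membrane proteins, and podocytes make large amounts of both. When unfolded protein builds up there, 3 sensors respond. IRE1 (Ern1) splices Xbp1 mRNA, ATF6 is cut in the Golgi to release a transcription factor, and PERK (Eif2ak3) phosphorylates eIF2 alpha, which slows translation and favours ATF4. XBP1 and ATF6 raise chaperones and the machinery of ER-associated degradation (ERAD), which pulls misfolded proteins back to the cytosol. ATF4 raises amino acid genes, Ddit3 and other targets, and can also be reached by kinases that sense other stresses, which is why this arm is called the integrated stress response. Counts per gene do not show Xbp1 splicing, ATF6 cleavage or eIF2 alpha phosphorylation.

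Many of these genes carry the ER stress element, ERSE, which reads CCAAT, then 9 bases, then CCACG, and which ATF6 binds with NF-Y. Promoter windows of RefSeq on GRCm38.p6, 250 bases before to 50 after each start, were matched for 30 of the 34 members. Atf6, Derl1, Hyou1 and Manf were not matched. Both strands were searched for ERSE, for ERSE-II (ATTGG, any 1 base, CCACG), for UPRE (TGACGTGG) and for the ATF4 element CARE (TGATGNAA). ERSE, ERSE-II and UPRE share the letters CCACG or their complement. ERSE was found in 9 of the 30 members and in 0.119% of all 32851 windows. The sites are shown because ERSE is the element best known for this response. They read as follows, 5′ to 3′ on the strand that carries the motif, with the fixed letters in capitals.
Hspa5: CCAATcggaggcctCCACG
Calr: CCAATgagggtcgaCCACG
Canx: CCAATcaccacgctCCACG
Hsp90b1, nearer site: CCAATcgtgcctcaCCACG
Hsp90b1, farther site: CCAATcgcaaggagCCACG
Dnajc3: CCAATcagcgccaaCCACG
Pdia6: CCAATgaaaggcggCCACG
Creld2: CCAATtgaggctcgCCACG
Syvn1: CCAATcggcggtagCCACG
Derl3: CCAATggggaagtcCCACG

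Counted with the RefSeq start as 0, the Hspa5 site lies at -65 to -47 (chr2:34772025-34772043, plus strand) and the nearer Hsp90b1 site at -107 to -89 (chr10:86705533-86705551, plus strand). ERSE-II was found in Dnajb11 and Herpud1 (0.037% of all windows), CARE in Asns, Chac1, Herpud1 and Trib3 (3.969%) and UPRE in 0 members (0.676%). A match describes letters in the window and does not show binding. The stretches before the start of the 4 members whose difference was best supported are given next, on the plus strand of GRCm38.p6 (RefSeq). Each ends at the last base before the RefSeq start, or before an annotated exon of the gene where 1 begins earlier. Capitals mark the CARE and ERSE-II letters of Herpud1 and the CARE letters of Chac1, where CARE reads in reverse. Edem1 and Xbp1 held none of the 4 motifs in this window.
Herpud1, chr8:94386179-94386428: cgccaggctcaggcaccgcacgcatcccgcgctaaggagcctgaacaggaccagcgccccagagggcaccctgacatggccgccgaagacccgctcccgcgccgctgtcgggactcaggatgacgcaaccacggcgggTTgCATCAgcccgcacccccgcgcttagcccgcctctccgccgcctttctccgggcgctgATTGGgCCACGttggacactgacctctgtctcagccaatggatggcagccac
Chac1, chr2:119350992-119351228: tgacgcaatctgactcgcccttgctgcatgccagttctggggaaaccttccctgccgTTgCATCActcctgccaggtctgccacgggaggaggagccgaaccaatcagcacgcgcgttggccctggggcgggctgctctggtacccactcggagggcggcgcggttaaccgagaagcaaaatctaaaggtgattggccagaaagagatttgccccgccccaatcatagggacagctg
Edem1, chr6:108828391-108828640: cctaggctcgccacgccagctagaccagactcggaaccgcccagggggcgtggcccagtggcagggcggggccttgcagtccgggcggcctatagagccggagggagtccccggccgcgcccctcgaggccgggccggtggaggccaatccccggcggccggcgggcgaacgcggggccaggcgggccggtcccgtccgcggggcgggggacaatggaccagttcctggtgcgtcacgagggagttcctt
Xbp1, chr11:5520391-5520640: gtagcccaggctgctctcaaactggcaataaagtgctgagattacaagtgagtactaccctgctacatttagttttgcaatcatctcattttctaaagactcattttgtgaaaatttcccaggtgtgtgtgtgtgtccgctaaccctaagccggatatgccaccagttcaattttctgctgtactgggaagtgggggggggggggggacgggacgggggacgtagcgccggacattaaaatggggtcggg

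Gene counts ranged from 39841396 to 51917945 per library. For Arhgef7 itself the raw counts of CTRL 157, 162 and 163 were 3956, 3582 and 3915. Those of KO 146, 147 and 148 were 7837, 3712 and 3903. These counts were not scaled by library size, which was largest in KO 146, so they cannot be compared directly. Counts over the whole gene in mixed tissue do not isolate podocytes or a deleted exon. All 12 podocyte markers examined were detected in every library, and so were the 14 proximal tubule markers, which summed to 34400 to 35900 CPM (read counts scaled by library size) in CTRL and 16300 to 27600 CPM in KO. The podocyte markers summed to 946 to 1160 CPM in CTRL and to 8670, 3650 and 2350 CPM in KO 146, 147 and 148. Markers of glomerulus and tubule were thus both present at levels that differed between the libraries. With all 6 libraries in the fit, edgeR called 0 of the 12 podocyte markers. DESeq2 called 12 of 12 higher, where it called 11.4% of all genes higher. All 12 lay wholly above CTRL in KO, where 21.9% of all genes did. In such tissue fewer cells of a type and less RNA per cell cannot be told apart.

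Between the groups, edgeR called 1 of the 34 members (2.94%) and 1.01% of all tested genes. Edem1, a lectin that takes mannose-trimmed glycoproteins out of the folding cycle for degradation, was lower in KO. It was called in 7 of 13 alternative analyses. Xbp1 and the ERAD scaffold gene Herpud1 had differences of similar size, in the same direction, that did not pass the threshold. Chac1, a glutathione-degrading enzyme under ATF4, had the largest difference of all members, upwards, from very few reads, and did not pass either. The chaperone genes Hspa5 (BiP), Hsp90b1 and Calr and the regulators Atf4 and Ddit3 overlapped between the groups, while the chaperone genes Canx, Dnajb9 and Dnajc3 lay lower in every KO library without passing.

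Calls are genes with a Benjamini-Hochberg adjusted p below 0.05 in edgeR's quasi-likelihood test over all 17086 tested genes, of which 1.01% were called (0.591% higher and 0.421% lower in KO). Of the 34 members, 0 were called higher and 1 lower, or 2.94% in all. At an unadjusted p below 0.05 there were 1 higher and 5 lower members, together 17.6%, against 29.3% of all tested genes. The 3 KO values lay wholly below the 3 CTRL values for 10 members and wholly above for 1, together 32.4%, against 41.5% of all tested genes. By direction, 29.4% of members lay wholly below CTRL against 19.6% of all genes, and 2.94% wholly above against 21.9%. The lower members at an unadjusted p below 0.05 were 14.7% against 11.8%, and the higher ones 2.94% against 17.5%. The median log2 fold change, KO minus CTRL, was -0.10 over the members and -0.01 over all tested genes, and 10 of 34 members were positive against 49.3% of all genes. Scaling by library totals moved the median of all genes to 0.13 and that of the members to 0.04, with 23 of 34 positive, so the sign of a small difference here depends on the scaling.

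**Figure D1:**
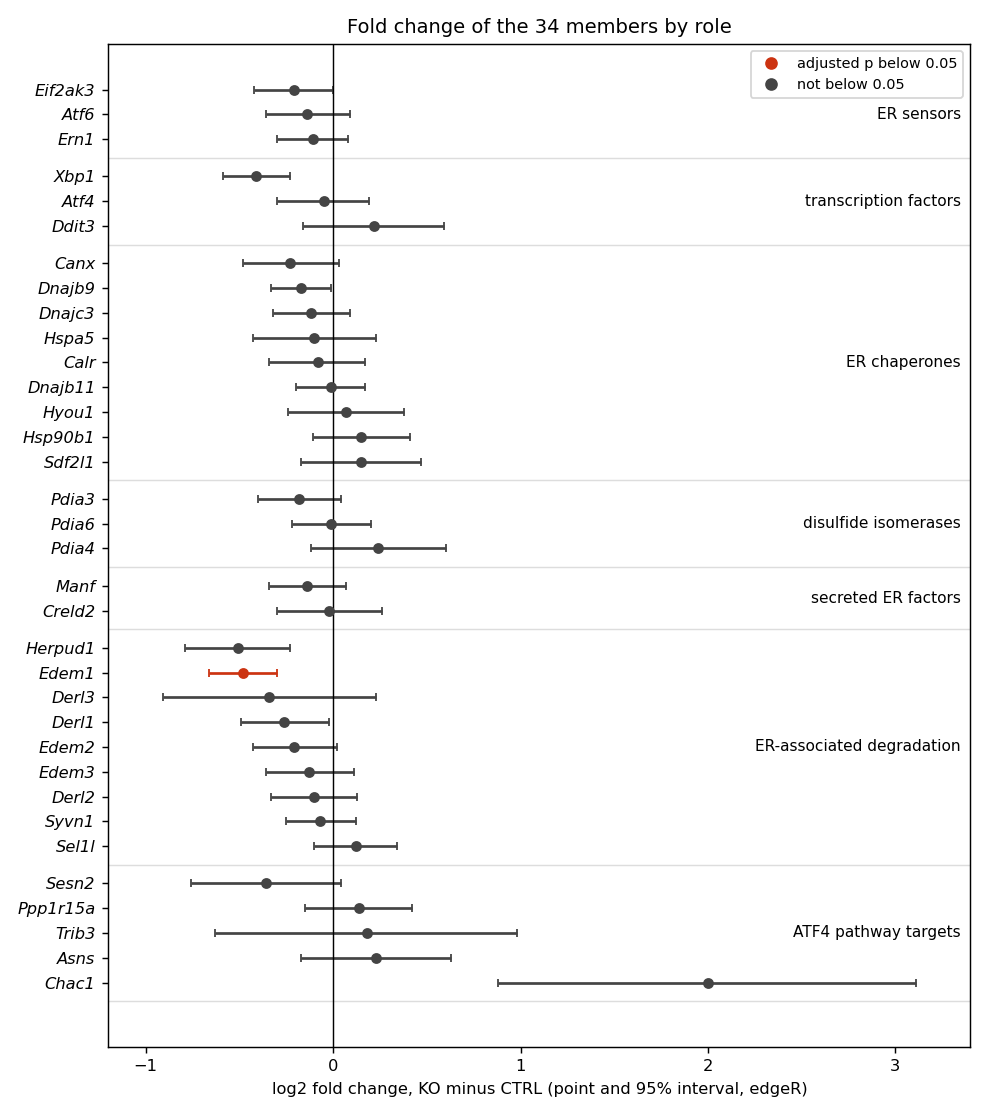
Log2 fold change of each of the 34 members, KO minus CTRL (horizontal axis), grouped by role, with the 95% interval of the edgeR fit to all 6 libraries. Edem1, in red, is the 1 member with an adjusted p below 0.05, and Chac1 at 2.0 lies farthest from 0 with the widest interval, 0.88 to 3.11.

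The members spanned a wide range of levels. Scaled to exon length, the CTRL mean ran from 207 CPM per kilobase for Calr, the calcium-binding lectin chaperone calreticulin, to 0.175 CPM per kilobase for Chac1. After Calr came Pdia3 at 138, Canx at 104, Herpud1 at 102, Hsp90b1 at 98.9 and Hspa5 at 79.8 CPM per kilobase. Herpud1 differed from its neighbours Canx and Hsp90b1 by less than its spread over CTRL libraries. The sensors were low, with Atf6 at 5.79, Eif2ak3 at 4.49 and Ern1 at 2.81 CPM per kilobase, and the lowest levels after Chac1 were those of Trib3 at 0.240 and Derl3 at 0.318.

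Among the sensors, no gene passed the test. Eif2ak3, which encodes PERK, stood at 26.0, 26.5 and 28.6 CPM in CTRL 157, 162 and 163 and at 24.2, 21.6 and 24.5 CPM in KO 146, 147 and 148. All 3 KO values were below all 3 CTRL values, by a small margin, and its log2 fold change was -0.21 (SE 0.088, edgeR adjusted p = 0.176). Atf6 had a value of -0.14 (95% interval -0.36 to 0.09) and Ern1 of -0.11 (-0.30 to 0.08), both with overlapping groups. In Atf6 the overlap came from KO 146, at 54.5 CPM against 45.7 CPM in each of KO 147 and 148 and 51.3 to 54.8 CPM in CTRL. Without KO 146, edgeR called Atf6 lower at -0.23 (adjusted p = 0.0307), in a fit that called 17.2% of all genes.

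Of the transcription factors, Xbp1 was the one whose groups were apart. Its level was 92.2, 90.5 and 94.1 CPM in CTRL 157, 162 and 163 and 72.6, 70.5 and 65.6 CPM in KO 146, 147 and 148. The CTRL libraries lay within a few CPM of each other and every KO library lay well below them. The mean went from 92.2 ± 1.82 to 69.5 ± 3.59 CPM (SD, n = 3 each), a log2 fold change of -0.41 (SE 0.075, edgeR adjusted p = 0.0649), which did not pass. The gene lies on chromosome 11 from 5520659 to 5525893, plus strand, in the GENCODE annotation of GRCm38.

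Atf4, the translationally controlled factor of the integrated stress response, stood at 74.6, 82.6 and 91.0 CPM in CTRL and 86.7, 77.0 and 75.3 CPM in KO, in the same order of animals. The ranges overlapped almost wholly, and the log2 fold change was -0.05 (95% interval -0.30 to 0.19). Ddit3, which encodes the pro-apoptotic factor CHOP, stood at 9.46, 9.85 and 10.9 CPM in CTRL and 14.3, 10.8 and 10 CPM in KO. Only KO 146 was above the CTRL range, and the log2 fold change of 0.22 (SE 0.16, edgeR adjusted p = 0.394) did not pass. Exons of Ddit3 share 6.1% of their bases with its second identifier and 4.7% with opposite-strand genes, among them Mars, so some of its reads can be missing or misplaced. The same limit holds for other members. Among them are Hsp90b1 (5.4% same strand, 10.3% opposite strand), Manf (8.9% opposite strand) and Eif2ak3 (8.0% opposite strand).

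**Figure D2:**
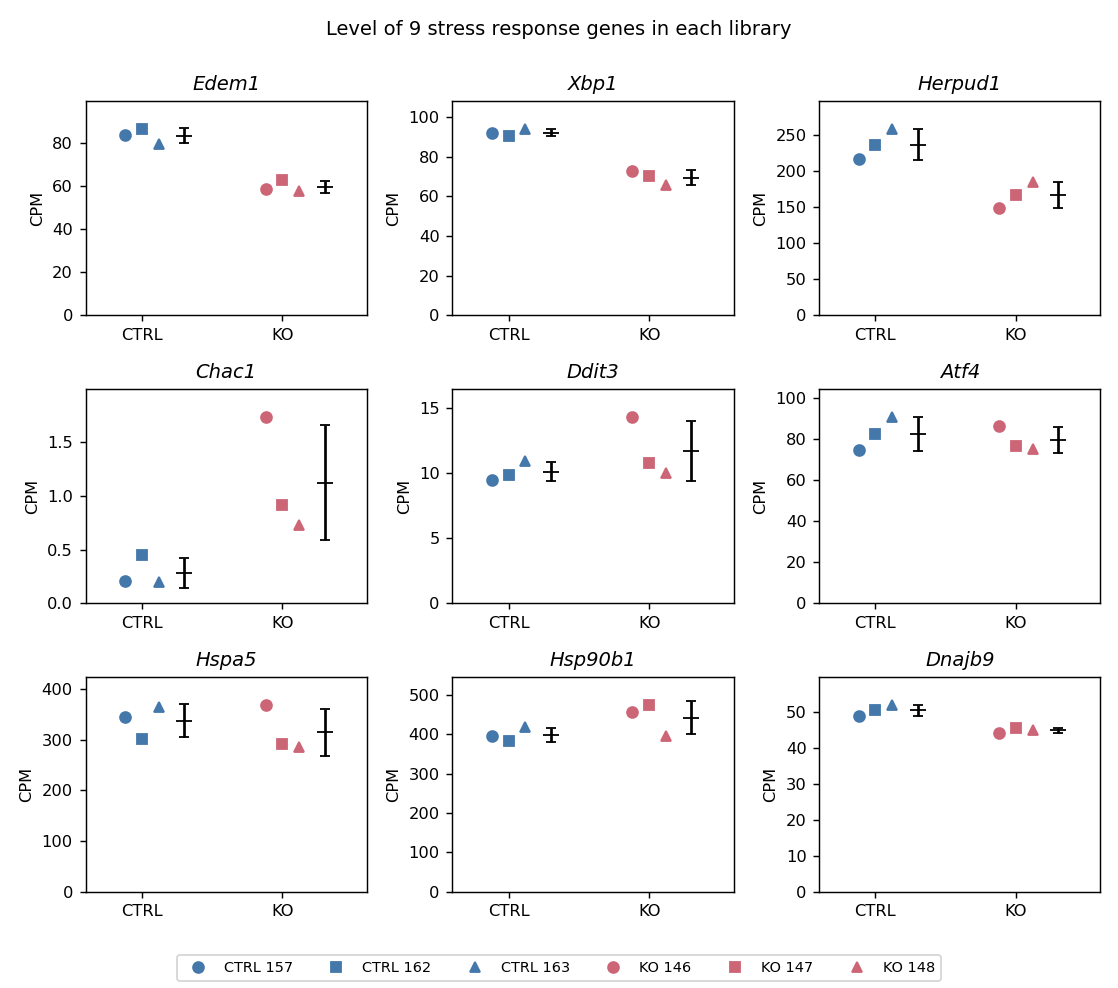
Level of 9 members in CPM (vertical axes, each from 0) in the 3 CTRL libraries (blue) and the 3 KO libraries (red), with the mean and SD of each group in black. Edem1, Xbp1, Herpud1 and Dnajb9 lie lower in every KO library than in any CTRL library and Chac1 higher, while Ddit3, Atf4, Hspa5 and Hsp90b1 overlap.

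None of the 9 ER chaperone and co-chaperone genes passed the test, and 3 of the 9 were positive. Hspa5 encodes BiP, the Hsp70 of the ER lumen that holds the sensors inactive and is the usual readout of the response. It stood at 346, 302 and 365 CPM in CTRL 157, 162 and 163 and 369, 291 and 285 CPM in KO 146, 147 and 148. The highest value was in KO 146 and the lowest in KO 148, with CTRL between, and the log2 fold change was -0.10 (95% interval -0.43 to 0.23, edgeR adjusted p = 0.663). Hsp90b1 (GRP94), the Hsp90 of the ER, went from 399 ± 18.5 to 443 ± 41.0 CPM (SD, n = 3 each), a log2 fold change of 0.15 with overlapping groups.

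The BiP co-chaperone gene Dnajb9 stood at 49, 50.6 and 52.1 CPM in CTRL and 44.4, 45.7 and 45.0 CPM in KO. Its groups did not overlap, and with a log2 fold change of -0.17 (SE 0.068, edgeR adjusted p = 0.158) it did not pass. Canx, the membrane-bound lectin chaperone calnexin, stood at 478, 487 and 500 CPM in CTRL and 376, 425 and 450 CPM in KO, with a log2 fold change of -0.23 (SE 0.11, edgeR adjusted p = 0.208). Every KO library was below every CTRL library, with KO 146 farthest away. Dnajc3, an inhibitor of PERK and BiP partner, was the other chaperone gene with separate groups, at -0.12.

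The remaining chaperones lay within 0.15 of 0 on the log2 scale. Calr was at -0.08, Dnajb11 at -0.01, the nucleotide exchange factor gene Hyou1 at 0.07 and Sdf2l1, a partner of the Dnajb11 product, at 0.15. Over the 9 genes the 95% intervals reached from -0.48 (Canx) to 0.47 (Sdf2l1), so a difference of 2-fold lay outside the interval of each. The 9 members with an ERSE had log2 fold changes from -0.34 (Derl3) to 0.15 (Hsp90b1), with a median of -0.08, 1 positive and 0 called. The 21 other members with a promoter window had a median of -0.10.

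The disulfide isomerases, which form and reshuffle disulfide bonds in the ER, and the secreted ER factors also gave 0 calls of 3 and 0 of 2. Pdia3, which works with calnexin and calreticulin, had separate groups (416 to 452 CPM in CTRL, 374 to 395 CPM in KO) and a log2 fold change of -0.18. Pdia4 was at 0.24, with 123 CPM in KO 146 against 81.4 to 89.2 CPM in the other 5 libraries, and Pdia6 was at -0.01. Manf, a stress-induced protein with protective activity, was at -0.14, and Creld2 at -0.02.

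The ERAD genes held the called member. Of 9 tested, 1 fell, 0 rose and 8 did not pass, and 8 of 9 were negative with a median of -0.21, or -0.07 with library totals. Edem1 (ENSMUSG00000030104, chromosome 6, 108828641 to 108859356, plus strand, GRCm38) stood at 83.6, 86.7 and 79.7 CPM in CTRL 157, 162 and 163 and 58.7, 62.7 and 57.6 CPM in KO 146, 147 and 148. The lowest CTRL library was well above the highest KO library, and the KO libraries were close to each other. The mean went from 83.4 ± 3.51 to 59.7 ± 2.67 CPM (SD, n = 3 each), a log2 fold change of -0.48 (SE 0.076, 95% interval -0.66 to -0.30, edgeR adjusted p = 0.0484).

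The related mannosidase-like genes did not pass. Edem2 stood at 46.3, 47.9 and 46.7 CPM in CTRL and 36.3, 44.8 and 41.1 CPM in KO, so its groups were apart, at a log2 fold change of -0.21 (SE 0.094, edgeR adjusted p = 0.199). Edem3 overlapped between the groups at -0.13. Whether Edem1 differed from its relatives in its response was not tested.

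Herpud1, an ER membrane protein that brings the degradation complex together, stood at 217, 236 and 259 CPM in CTRL 157, 162 and 163 and 149, 167 and 185 CPM in KO 146, 147 and 148. All KO values were below all CTRL values, with a wider spread than for Edem1. The mean went from 237 ± 21.4 to 167 ± 17.8 CPM (SD, n = 3 each), and the log2 fold change of -0.51 (SE 0.12, edgeR adjusted p = 0.0755) did not pass.

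Derl1, a channel component of the retrotranslocation complex, stood at 132, 125 and 136 CPM in CTRL and 97.9, 112 and 119 CPM in KO, again with separate groups, at -0.26 (SE 0.099, edgeR adjusted p = 0.146). Its relatives Derl2 (-0.10) and Derl3 (-0.34, counted 20 to 30 times per library) overlapped. The ubiquitin ligase Syvn1 (HRD1) was at -0.07. Its partner Sel1l, at 0.12, was the positive member of the group.

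The 5 targets of the ATF4 arm gave 0 calls, and 4 of the 5 were positive. Chac1 (ENSMUSG00000027313, chromosome 2, 119351229 to 119354381, plus strand) had 9, 17 and 9 reads in CTRL 157, 162 and 163 and 102, 38 and 33 reads in KO 146, 147 and 148. These counts are 0.209, 0.446 and 0.203 CPM in CTRL and 1.73, 0.917 and 0.726 CPM in KO. Each KO library was above each CTRL library, KO 146 by the widest margin. The log2 fold change was 2.0 (SE 0.47, edgeR adjusted p = 0.0755), and the gene did not pass.

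Sesn2, an inhibitor of mTORC1, stood at 33.2, 38.0 and 38.9 CPM in CTRL and 21.9, 29.9 and 34.3 CPM in KO. KO 148 lay inside the CTRL range, and the log2 fold change was -0.36 (SE 0.17, edgeR adjusted p = 0.211). Asns (asparagine synthetase) was at 0.23, the pseudokinase gene Trib3 at 0.18 and Ppp1r15a, the phosphatase subunit that restores translation, at 0.14, each with overlapping groups. Without KO 146 Trib3 was at -0.18, and with the mean of the proximal tubule markers as a covariate Trib3 was at -0.74 and Ppp1r15a at -0.09. Trib3 was counted 18 to 47 times per library, so its interval ran from -0.63 to 0.98.

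Markers of the cell types present differed along the same libraries. The proximal tubule mean was 10.22 to 10.29 log2 CPM in CTRL and 9.17, 9.73 and 9.90 in KO 146, 147 and 148, and the podocyte mean was 5.43 to 5.75 and 8.54, 7.27 and 6.68. The order of the podocyte, endothelial and mesangial markers, KO 146 over 147 over 148, was shared by 10 of the 34 members (Atf4, Chac1, Ddit3, Hspa5, Hyou1, Pdia4, Ppp1r15a, Syvn1, Trib3 and Xbp1). The reverse order, that of the proximal tubule markers, was shared by 6 (Canx, Derl1, Derl2, Dnajc3, Herpud1 and Sesn2). The share of all genes with either order was not computed, and a link of these orders to the markers was not tested. Some gaps were small, as in Syvn1 at 39.8, 36.5 and 36.1 CPM in KO 146, 147 and 148. Xbp1 lay below CTRL in every KO library, where the glomerular markers lay above. The proximal tubule mean was higher in every CTRL library than in any KO library, so a fit with it as a covariate cannot fully separate the group from the covariate. In edgeR with this covariate, Edem1 was at -0.48 (adjusted p = 0.0481) and Xbp1 at -0.52 (adjusted p = 0.0234), both called lower. These were 5.88% of the members, where 1.6% of all genes were called. The median of the 12 podocyte markers was 0.22 in this fit, against 2.07 without the covariate. In the same fit Herpud1 was at -0.28 (adjusted p = 0.323), Derl1, Edem2 and Canx each at -0.01, and Chac1 at 0.77 (adjusted p = 0.488). Other members lay farther below 0 than without the covariate, or turned below it, and were not called. Hspa5 was at -0.44 (adjusted p = 0.146), Atf6 at -0.37 (0.0983), Hyou1 at -0.35 (0.134) and Pdia4 at -0.27 (0.198). Over all members, 8 of 34 were positive in this fit, and the median was -0.15, where that of all genes was 0. At an unadjusted p below 0.05 there were 0 higher and 7 lower members. The share of all genes at that threshold was not computed for this fit, and without the covariate it was 29.3%. The part of the glomerular markers in these differences was not tested.

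Immune markers did not follow the groups. The macrophage and lymphocyte markers summed to 59.2 to 68.4 CPM in CTRL and 56.4 to 74.9 CPM in KO. Plasma cells, which are known for high Derl3 and Sdf2l1, had markers that summed to 12.5 to 21.8 CPM in CTRL and 12.8 to 20.6 CPM in KO, with Tnfrsf17 counted 1 to 7 times per library.

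**Figure D3:**
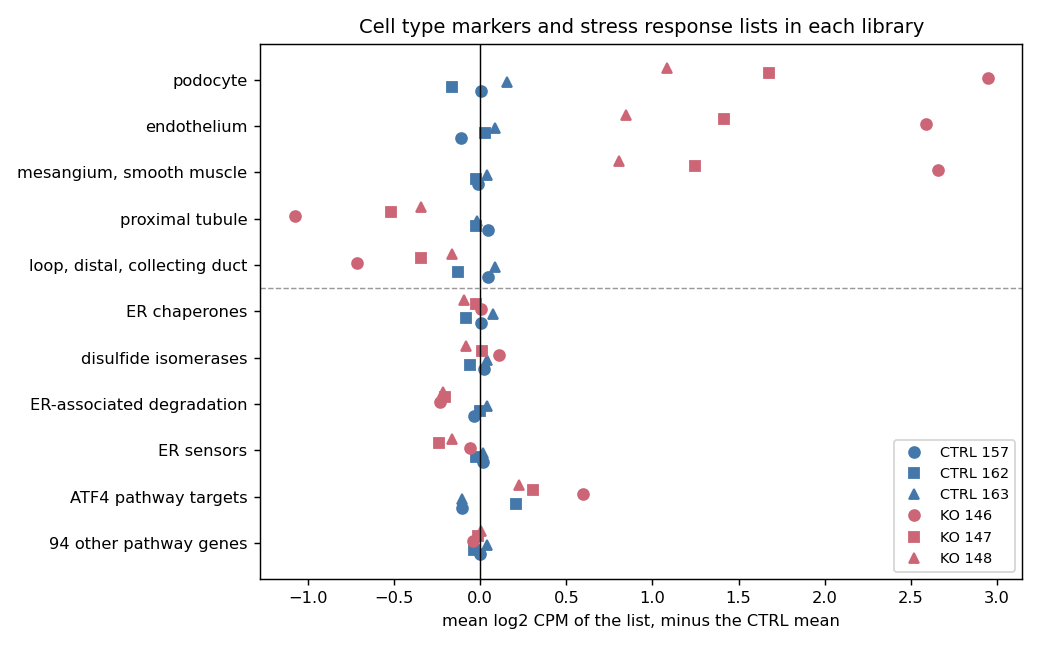
Mean log2 CPM of 5 cell type marker lists (above the dashed line) and of 5 roles of the members and the 94 other pathway genes (below it), each minus its CTRL mean, with 1 point per library. The glomerular marker lists lie 0.8 to 3 higher and the tubule lists lower in the KO libraries, while the chaperones and the other pathway genes stay near 0, the ERAD genes lie slightly below it and the 5 ATF4 targets lie above it in KO. Without Chac1, the other 4 targets had mean log2 ratios to CTRL of 0.13, -0.03 and -0.05 in KO 146, 147 and 148.

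The calls among members rested on which libraries and which test were used. Edem1 had a negative value in all 13 alternatives, between -0.52 and -0.34, and was called in 7 of them. It was not called by limma-voom (adjusted p = 0.0542), with library totals (0.0902), or by edgeR without CTRL 157, 162 or 163 or KO 147 (0.246, 0.227, 0.189 and 0.139). Of all genes, limma-voom called 0.72%, library totals 0.96% and the fits without CTRL 157, 162, 163 or KO 147 called 0.0114%, 0.0171%, 0.0569% and 0.0115%, with 0 members among them. At an unadjusted p below 0.05 these 6 analyses held 6, 5, 4, 4, 4 and 5 members. The share of all genes at this threshold was not computed for them. With edgeR on all libraries it was 29.3%, against 17.6% of the members. With no filter on low counts edgeR called Edem1, Herpud1 and Chac1, or 8.82% of the members against 2.72% of all genes. Xbp1 was negative in all 13 as well, from -0.52 to -0.27, and called in 4.

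DESeq2 called 4 members, Edem1, Xbp1 and Herpud1 lower and Chac1 higher, or 11.8% of 34 against 16.6% of all genes. edgeR called the same 4 without KO 148 (18.3% of all genes), and these 4 with Atf6 without KO 146 (14.7% of the members against 17.2%). Without KO 148 the 4 were 11.8% of the members. The differences between these shares and those of all genes were not tested. Without KO 146 the log2 fold change of Chac1 was 1.53 (adjusted p = 0.0275), with 12 podocyte markers of 12 called higher in the same fit.

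**Figure D4:**
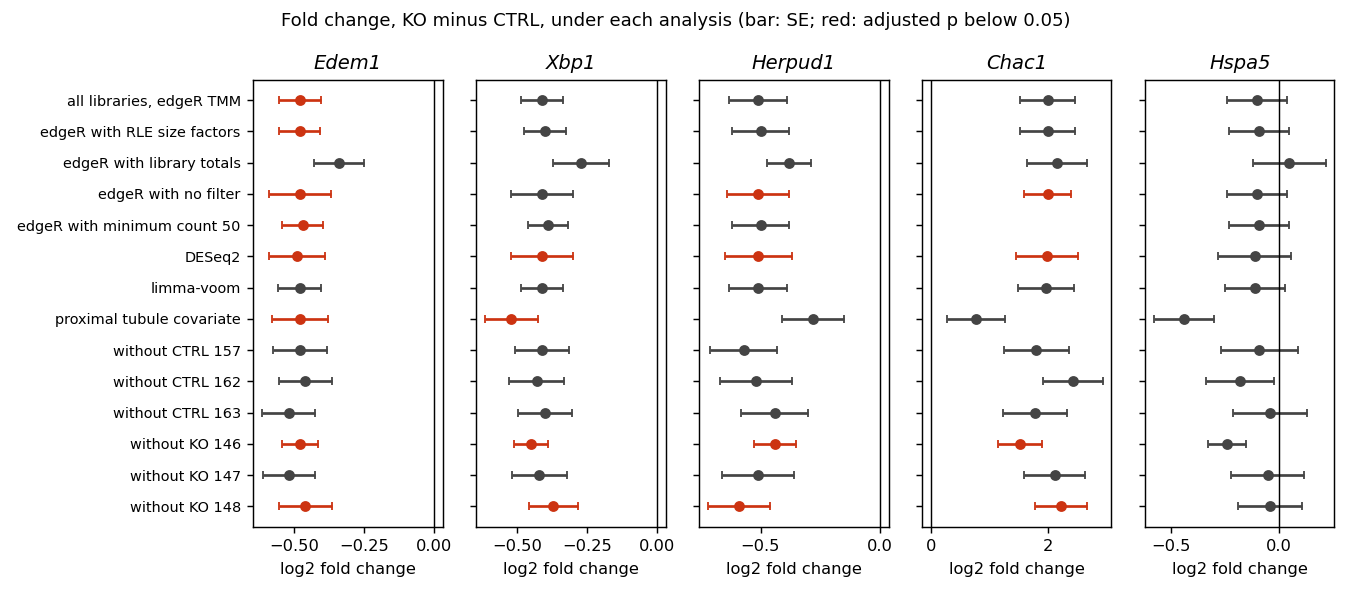
Log2 fold change, KO minus CTRL, with its SE (horizontal axes, 1 scale per gene) for Edem1, Xbp1, Herpud1, Chac1 and Hspa5 under each analysis named on the left, in red where the adjusted p was below 0.05. Edem1, Xbp1 and Herpud1 lie below 0 and Chac1 above 0 in every analysis with a value, while the red points come and go with the library left out, and Chac1 has no value at the minimum count of 50.

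Other genes of the same pathways gave 0 calls in edgeR. Of 94 listed genes, 93 were tested, with 8 higher and 11 lower at an unadjusted p below 0.05 (20.4%, against 29.3% of all genes) and a median of -0.09. DESeq2 called 6 higher and 4 lower, 10.8% against 16.6%, and limma-voom 0. Of 15 further ERAD genes, 10 had KO libraries wholly below CTRL libraries, where 19.6% of all genes did, and their median was -0.16, or -0.03 with library totals. The ubiquitin ligase March6 went from 239 ± 7.63 to 182 ± 6.09 CPM (SD, n = 3 each; -0.39, edgeR adjusted p = 0.0753). Rnf5 was at -0.31 and Aup1 at -0.26, and neither passed.

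The folding, translocon, signalling and amino acid lists had members in both directions. The folding genes Pdia5 and Fkbp14 stood at 0.81 and 0.71, and Sil1, the exchange factor of BiP, at -0.35. In the translocon and signal peptidase list, Spcs1, Sec11a and Sec61b stood at -0.22, -0.24 and -0.23. Among signalling genes, the ATF6-like factor Creb3l1 was at 1.10, the double-stranded RNA sensor Eif2ak2 (PKR) at 0.45 and Rtcb, the ligase that joins spliced Xbp1 mRNA, at -0.22. Of 37 tested ATF4 targets outside the members, Nupr1 was at 1.73 and the amino acid transporter Slc7a1 at 0.50. Cth, which makes cysteine, went from 116 ± 2.70 to 76.1 ± 9.30 CPM (SD, n = 3 each; -0.61, edgeR adjusted p = 0.0594). The edgeR adjusted p of these genes lay between 0.0594 and 0.259.

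Stress genes outside the ER gave 0 calls of 30 in edgeR and limma-voom. DESeq2 called 3 higher and 2 lower, 16.7% against 16.6% of all genes. At an unadjusted p below 0.05 in edgeR, 4 of the 30 were higher and 6 lower, where 29.3% of all genes passed. All 5 chaperones and proteases of the mitochondrial unfolded protein response had KO libraries wholly below CTRL libraries, where 19.6% of all genes did. They were led by Lonp1 (-0.35), Hspa9 (-0.40) and Hspd1 (-0.42), with edgeR adjusted p values of 0.104, 0.117 and 0.131. The median of the 5 genes went from -0.35 to 0.03 with the proximal tubule covariate. In the cytosolic heat shock list Dnaja1 and Hsph1 were each at -0.39 and Hspb1 at 1.01. Of 14 immediate early genes, which respond to handling of tissue, 8 were positive, with Klf2 at 1.49, Klf4 at 1.44 and Klf6 at 0.46, and the list median was 0.07.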

How the data were processed

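The authors deposited raw read counts per mouse Ensembl gene, 1 file per library, with no normalization. Tools listed in the submitters' processing notes, without role or order, are DESeq2, HTSeq 0.11.1, STAR 2.6.0 and fastp 0.19.5. These notes list GRCh37, a human build, while all identifiers are of mouse, so the alignment build is uncertain. For the strand setting, the sources give nothing. Closing lines naming no gene were left out, among them 22.51% to 29.63% of records aligned to several places. Identifiers were named from GENCODE M21 (54809 of 54838), and positions are that annotation's.

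Counts were tested in R 4.3.3 with edgeR 4.0.16 (TMM, filterByExpr with minimum count 10, robust quasi-likelihood F test, KO against CTRL, no covariate, Benjamini-Hochberg over all tested genes). SE is the absolute log2 fold change over the square root of F, and 95% intervals use the test's degrees of freedom. CPM are counts over TMM library sizes, and list means use a prior count of 2. DESeq2 1.42.0, limma 3.58.1, other scalings and filters, each library left out and a proximal tubule covariate (mean of 14 markers) were alternatives. The fits were also run on simulated counts with the same dispersion for every gene and no difference in tissue make-up between libraries. That setting is simpler than these libraries, so it does not show how the fits behave on them.

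Members and lists were chosen with earlier results of these data known. Values per library are given for Hspa5, Xbp1, Atf4, Ddit3, Herpud1, called members and the 10 members of smallest p, and for other lists the 3 genes of smallest p are named. Labels name separate animals. Within groups, counts differed beyond sampling noise (chi-square per degree of freedom 16.71 or more), so no library was a copy of another.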

Additional observations from a re-analysis of the deposited data

How the results depend on the processing

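No paired analysis was possible because the groups share no animal number. The count of called genes, 173 with edgeR on all libraries, was 960 with no filter on low counts, 2874 with DESeq2, 273 with the proximal tubule covariate and 2 to 3211 with 1 library left out. Called members numbered 1 with edgeR on all libraries, 3 with no filter, 4 with DESeq2 and 2 with the covariate. They numbered 0 with library totals, 0 with limma-voom and 0 to 5 with 1 library left out. At an unadjusted p below 0.05 there were 5 members with library totals and 6 with limma-voom. The share of all genes at that threshold was not computed for these fits. The members' median log2 fold change, -0.10, was 0.04 with library totals, -0.15 with the covariate and -0.15 to -0.05 with 1 library left out. With library totals Hspa5 was at 0.05 and Atf4 at 0.09, Atf4 ranged from -0.13 to 0.02 with 1 library left out (above 0 without CTRL 163), and with the covariate Ddit3 was at -0.27 and Sesn2 at 0.15, each of opposite sign to its value in the fit to all libraries and none called. The cause of these changes was not tested. Leaving out a library leaves fewer samples. Called genes numbered 2974 without KO 146, 3211 without KO 148 and 2 to 10 without CTRL 157, 162, 163 or KO 147. Chac1, Derl3 and Trib3, the members with the fewest reads, had the largest SE. At the minimum count of 50 the number of members tested was 31, and Chac1 had no value.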
